A study of Mus musculus with 6 samples.

Results

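The major histocompatibility complex (MHC) class I genes, the light chain gene and the genes of the peptide transporter were followed in the cerebral cortex of 6 female mice. The 10 genes were 7 class I heavy chain genes (H2-T23, H2-T10, H2-T22, H2-Q4, H2-Q7, H2-D1 and H2-K1), B2m, Tap1 and Tap2, matched by symbol among 33274 gene rows, and each symbol had 1 row. They were chosen by their measured values in these same libraries: H2-T23 had been called between the lineages, and the fold changes of H2-T10, H2-D1 and H2-K1 had been seen. Their difference between the lineages is therefore given as a description, with no test, and it supports nothing further. H2-Q7 lay below the filter on low counts, so 9 of the 10 entered the fit across all genes.

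The methylphenidate lineage held 3 wild type ICR females whose grandsires received methylphenidate at 15 mg/kg under the skin on 21 successive days from 6 weeks of age. The saline lineage held 3 wild type ICR females whose grandsires received saline at 10 mL/kg in the same way. In both lineages the dosed males were mated with untreated females, 1 son per litter was mated with an untreated female, and the cortex of the grandoffspring was taken at 6 weeks of age. These animals were never dosed themselves. ICR is an outbred stock, and shared litters or grandsires are not recorded in the labels, so errors below measure the spread between these libraries only, which may be partly technical. Counts were assigned on the mouse reference genome, which comes from the inbred strain C57BL/6J. The H2 alleles of the 6 animals were not measured, and a difference in expression and a difference in how well an allele's reads match the reference cannot be told apart in these counts.

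Class I molecules hold short peptides at the cell surface for inspection by CD8 T cells and natural killer cells. A polymorphic heavy chain pairs with the light chain beta-2-microglobulin, encoded by B2m, and the peptides reach it in the endoplasmic reticulum through the transporter formed by TAP1 and TAP2. H2-K1 and H2-D1 encode the classical chains, which present cellular and viral peptides. H2-Q and H2-T genes encode nonclassical chains with narrower roles. H2-T23 encodes Qa-1, which presents a peptide from the leader of the H2-D chain to receptors of natural killer cells. The products of H2-T10 and H2-T22 bind no peptide and are seen by a subset of gamma-delta T cells. In the healthy brain class I is carried mostly by endothelial cells and microglia, while some neurons express it at low levels, where it takes part in synapse pruning.

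The heavy chain genes resemble one another, and the bases below show how closely. They are the first 60 bases of the second coding exon of H2-T23 and the best ungapped match in the transcript of each other heavy chain, from GENCODE M21 on GRCm38, read 5′ to 3′ on the coding strand, with capitals where a base differs from the one found in most of the 7 genes or where no base has a majority.
H2-T23: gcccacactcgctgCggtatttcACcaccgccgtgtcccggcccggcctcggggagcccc
H2-T10: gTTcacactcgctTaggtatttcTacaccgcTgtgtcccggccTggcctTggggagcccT
H2-T22: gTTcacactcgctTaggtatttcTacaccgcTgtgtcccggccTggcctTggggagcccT
H2-Q4: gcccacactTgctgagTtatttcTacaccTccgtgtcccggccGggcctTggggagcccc
H2-Q7: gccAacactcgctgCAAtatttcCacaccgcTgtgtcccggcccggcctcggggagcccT
H2-D1: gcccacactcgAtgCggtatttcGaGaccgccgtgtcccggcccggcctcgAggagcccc
H2-K1: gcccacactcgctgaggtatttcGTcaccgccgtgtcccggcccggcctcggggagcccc
H2-T10 and H2-T22 had the same 60 bases (0 differences), while H2-T22 differed from H2-T23 at 10 positions and from H2-D1 at 12. H2-K1 was the closest to H2-T23, with 3 differences. Across whole transcripts, 40.15% of the 50-base stretches of H2-T10 occurred unchanged in H2-T22, and 37.91% of those of H2-T22 occurred in H2-T10. H2-T23 shared 0.21% with H2-T10, 5.76% with H2-T22 and 7.10% with H2-D1. H2-T23 shared its largest part, 12.86%, with the pseudogene H2-T-ps. B2m shared none with any other annotated gene. A read of this length from a shared stretch has no unique origin, so a count of H2-T10 or H2-T22 is less certain than one of B2m, and neither read length nor the treatment of such reads was stated.

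**Figure D1:**
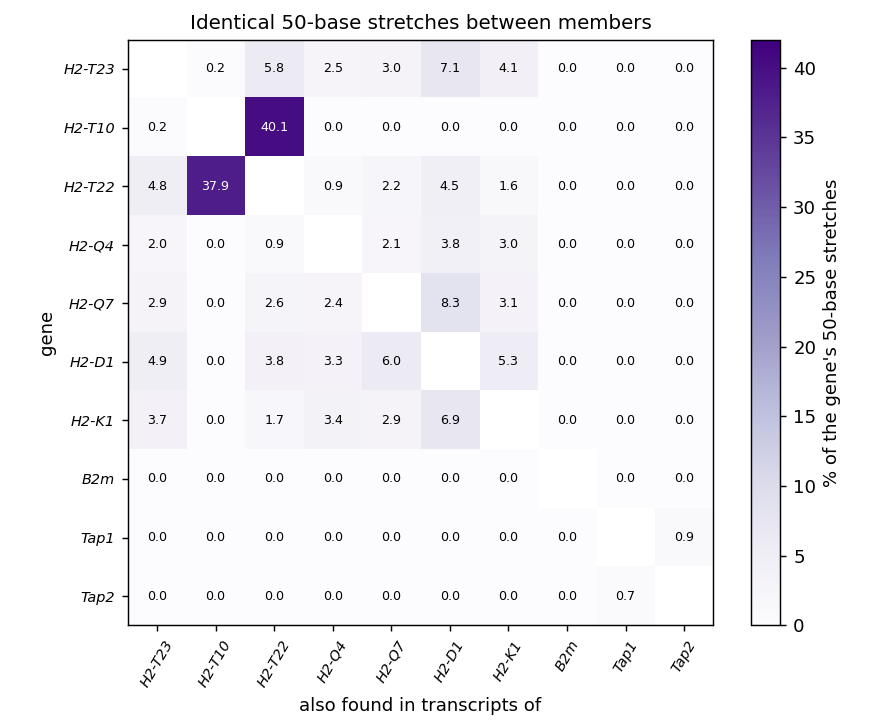
Share of the 50-base stretches of each gene (rows) that occur unchanged in transcripts of another gene (columns), in percent, in the GENCODE M21 annotation. H2-T10 and H2-T22 share 40.15% and 37.91%, and the other pairs share at most 8.34%.

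Counts assigned to H2-T23 were higher in all 3 methylphenidate libraries than in any saline library. H2-T23 (ENSMUSG00000067212) had 114, 142 and 122 counts in methylphenidate replicates 1 to 3, against 28, 33 and 26 in saline replicates 1 to 3. The methylphenidate lineage averaged 4.92 ± 0.17 CPM (counts relative to the library total, scaled by the trimmed mean of M values) and the saline lineage 1.14 ± 0.13 CPM (SD, n = 3 each). The groups did not overlap, and the libraries of each group lay close together. The log2 fold change, methylphenidate minus saline, was 2.10 with a standard error (SE) of 0.24, and it was at least 2.05 under all 14 other settings tried. In GENCODE M21 the antisense gene A930015D03Rik overlaps H2-T23. The libraries were directional, but no strand setting was stated, so it is unknown whether reads of the 2 genes were kept apart. A930015D03Rik had 17, 53 and 12 counts in the methylphenidate libraries, against 13, 8 and 16 in the saline libraries. These groups overlapped, and the part of antisense reads in the H2-T23 counts was not tested.

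H2-T10 (ENSMUSG00000079491) lay in the opposite direction, and unevenly. It had 249, 21 and 224 counts in methylphenidate replicates 1 to 3, against 616, 530 and 565 in saline replicates 1 to 3. The level in the methylphenidate libraries was 45.8%, 3.28% and 41.0% of the saline mean, on the scale of CPM, while the saline libraries themselves lay between 92.0 and 104.2% of it. The groups did not overlap, and methylphenidate replicate 2 stood far below the other two. The log2 fold change was -1.75 (SE 0.60). Without methylphenidate replicate 2 it was -1.20 (SE 0.13). RefSeq lists H2-T10 as a transcribed pseudogene of the reference strain, and GENCODE M21 gives it both protein-coding and polymorphic pseudogene transcripts.

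H2-T22 (ENSMUSG00000056116), the near-copy of H2-T10, did not follow it. H2-T22 had 200, 275 and 269 counts in the methylphenidate libraries, against 222, 190 and 201 in the saline libraries. The groups overlapped, and the log2 fold change was 0.26 (SE 0.16). Of the counts given to H2-T10 and H2-T22 together, H2-T10 took 55.5% (95% Clopper-Pearson interval 50.7 to 60.1), 7.10% (4.45 to 10.6) and 45.4% (41.0 to 49.9) in methylphenidate replicates 1 to 3. In saline replicates 1 to 3 it took 73.5% (70.4 to 76.5), 73.6% (70.2 to 76.8) and 73.8% (70.5 to 76.8). These intervals cover counting error only. The share was thus almost the same in the 3 saline animals and different in the methylphenidate animals, at its lowest in replicate 2. The sum of the 2 genes, which does not depend on how shared reads are divided between them, was 449, 296 and 493 counts in the methylphenidate libraries, against 838, 720 and 766 in the saline libraries. The summed groups did not overlap either, though the sum still depends on whether shared reads were counted at all, which was not stated.

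With H2-T23 added, the 3 H2-T genes summed to 21.4 ± 5.26 CPM in the methylphenidate lineage and 31.7 ± 2.00 CPM in the saline lineage (SD, n = 3 each). H2-T23 made up 20.2%, 32.4% and 19.8% of that sum in methylphenidate replicates 1 to 3, against 3.23%, 4.38% and 3.28% in saline replicates 1 to 3. The sum was lower and its make-up differed in every methylphenidate library.

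**Figure D2:**
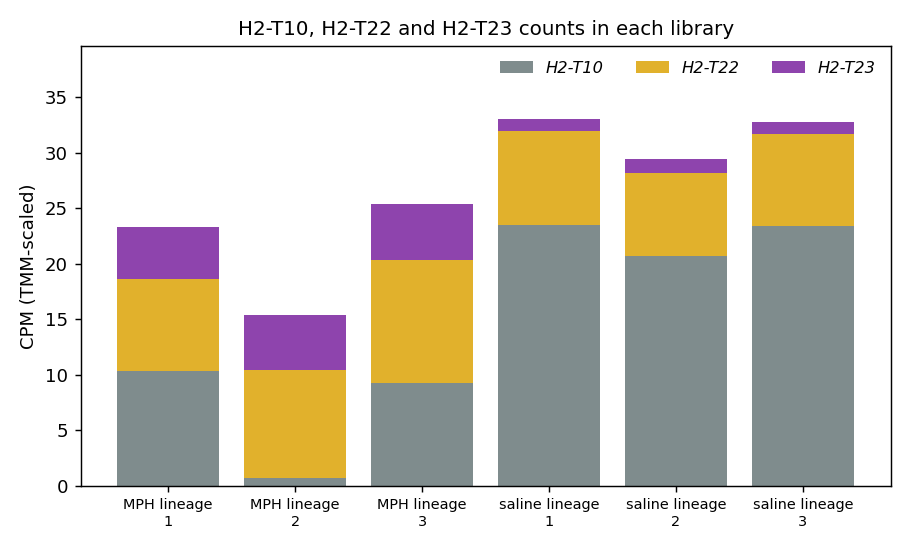
CPM (TMM-scaled) of H2-T10 (grey), H2-T22 (yellow) and H2-T23 (purple), stacked, in each of the 3 methylphenidate and 3 saline libraries. H2-T10 is the largest part in the saline libraries and nearly missing in methylphenidate replicate 2, where it had 21 counts.

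The classical chains were both higher on average, H2-D1 evenly and H2-K1 not. H2-D1 (ENSMUSG00000073411), the most abundant heavy chain here, had 1297, 1639 and 1626 counts in the methylphenidate libraries, against 1021, 1107 and 909 in the saline libraries. It averaged 59.5 ± 6.82 CPM in the methylphenidate lineage and 39.9 ± 2.97 CPM in the saline lineage (SD, n = 3 each), and the groups did not overlap. The log2 fold change was 0.57 (SE 0.10) and lay between 0.48 and 0.64 under the 14 other settings. H2-K1 (ENSMUSG00000061232) had 93, 375 and 181 counts in the methylphenidate libraries, against 130, 160 and 66 in the saline libraries. Methylphenidate replicate 2 was the highest library and methylphenidate replicate 1 lay within the saline range, so the groups overlapped. Its log2 fold change was 0.82 (SE 0.42), with a range over the other settings of 0.28, without methylphenidate replicate 2, to 1.15, without methylphenidate replicate 1.

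The leader of the H2-D chain is the source of the peptide that Qa-1, encoded by H2-T23, presents. The bases that encode this peptide in the reference are given here. In H2-D1 they are GCGATGGCTCCGCGCACGCTGCTCCTG (GRCm38, chr17:35263120-35263146, plus strand, codons 3 to 11, all 27 bases in capitals because all encode the peptide). This exact run occurred in 1 of the 7 heavy chain genes of the reference, H2-D1 itself. H2-D1 and H2-T23 were higher in every methylphenidate library, as were H2-T24 and H2-Bl, of the same region. These genes were chosen with these values known, and a link between H2-D1 and H2-T23 was not tested. The class I genes H2-T10, H2-Q1 and Gm6034 were lower in every methylphenidate library.

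Class I promoters carry a kappa-B element bound by NF-kappaB, an interferon-stimulated response element (ISRE), a cyclic AMP response half-site and CCAAT boxes, through which interferons and the transactivator NLRC5 act. The windows below run from 250 bases before to 50 after the annotated start, from RefSeq on GRCm38.p6, read 5′ to 3′ in the direction of the gene, and show the classical chains H2-D1 and H2-K1 beside H2-T22 and H2-T23. Capitals mark matches on either strand to GGGATTCCC (kappa-B), GTTTCACTT (ISRE), TGACG (half-site) and CCAAT.
H2-D1, chr17:35262844-35263143, plus strand: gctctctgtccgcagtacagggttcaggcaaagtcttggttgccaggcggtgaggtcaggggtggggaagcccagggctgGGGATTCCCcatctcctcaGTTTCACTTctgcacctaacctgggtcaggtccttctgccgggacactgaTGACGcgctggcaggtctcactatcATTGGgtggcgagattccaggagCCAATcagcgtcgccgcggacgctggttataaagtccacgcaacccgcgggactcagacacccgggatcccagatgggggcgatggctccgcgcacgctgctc
H2-K1, chr17:34000298-34000597, minus strand: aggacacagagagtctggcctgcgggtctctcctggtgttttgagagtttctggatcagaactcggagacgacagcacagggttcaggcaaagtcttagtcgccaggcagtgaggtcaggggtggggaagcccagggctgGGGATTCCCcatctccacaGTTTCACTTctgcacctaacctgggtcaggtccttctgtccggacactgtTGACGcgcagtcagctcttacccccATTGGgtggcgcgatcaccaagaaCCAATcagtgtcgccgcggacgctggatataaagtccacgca
H2-T22, chr17:36042693-36042992, minus strand: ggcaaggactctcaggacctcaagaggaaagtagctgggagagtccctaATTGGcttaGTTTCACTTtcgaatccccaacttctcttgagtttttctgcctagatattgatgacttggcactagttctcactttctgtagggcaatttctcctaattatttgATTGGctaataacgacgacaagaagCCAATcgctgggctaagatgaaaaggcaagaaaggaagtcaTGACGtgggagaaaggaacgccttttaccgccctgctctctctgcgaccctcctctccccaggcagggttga
H2-T23, chr17:36032652-36032951, minus strand: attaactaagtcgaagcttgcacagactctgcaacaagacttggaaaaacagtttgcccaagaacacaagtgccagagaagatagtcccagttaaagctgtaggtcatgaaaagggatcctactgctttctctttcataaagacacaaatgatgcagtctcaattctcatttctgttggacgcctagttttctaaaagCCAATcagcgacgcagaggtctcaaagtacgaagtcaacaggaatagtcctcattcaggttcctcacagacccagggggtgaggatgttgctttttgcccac
H2-D1 and H2-K1 each held 1 kappa-B element, 1 ISRE, 1 half-site and 2 CCAAT boxes, in the same order and without overlap. H2-T22 held an ISRE, a half-site and 3 CCAAT boxes, and H2-T23 held 1 CCAAT box and none of the other letters searched. Of 27025 mouse promoters of the same length, 0.37% held the kappa-B letters, 0.403% the ISRE, 21.0% the half-site and 37.9% a CCAAT box. These matches describe the reference sequence only. H2-Q7, not printed, held the same set as H2-D1 and H2-K1. Promoters of 8 of the 10 genes were matched, all but those of H2-T10 and Tap2, and 4 of the 8 are printed.

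The H2-Q genes followed here, H2-Q4 and H2-Q7, were low and overlapped between the lineages. H2-Q4 (ENSMUSG00000035929), which encodes a nonclassical chain, had 64, 101 and 91 counts in the methylphenidate libraries, against 93, 108 and 83 in the saline libraries (log2 fold change -0.17, SE 0.23). H2-Q7 (ENSMUSG00000060550), which encodes the Qa-2 antigen, had 3, 0 and 5 counts in the methylphenidate libraries, against 6, 3 and 6 in the saline libraries. At this depth, where 3 counts correspond to between 0.106 and 0.124 CPM, no difference in H2-Q7 was detectable.

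The light chain and transporter genes all overlapped between the lineages. B2m (ENSMUSG00000060802) had 1116, 1002 and 943 counts in the methylphenidate libraries, against 1023, 1058 and 996 in the saline libraries. The groups overlapped, with 40.1 ± 5.62 CPM in the methylphenidate lineage and 40.5 ± 1.34 CPM in the saline lineage (SD, n = 3 each; log2 fold change -0.02, SE 0.11). Tap1 (ENSMUSG00000037321) had 37, 36 and 70 counts in the methylphenidate libraries, against 39, 44 and 60 in the saline libraries, with a log2 fold change of 0.00 (SE 0.38). Its highest library in either lineage was replicate 3, and its error was the widest of B2m, Tap1 and Tap2. Tap2 (ENSMUSG00000024339) had 269, 125 and 175 counts in the methylphenidate libraries, against 232, 227 and 253 in the saline libraries (log2 fold change -0.31, SE 0.28). Methylphenidate replicate 1 was the highest and methylphenidate replicate 2 the lowest of the 6 libraries for Tap2, so the groups overlapped. The value rests on these libraries: it was -0.70 without methylphenidate replicate 1 and -0.03 without methylphenidate replicate 2.

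**Figure D3:**
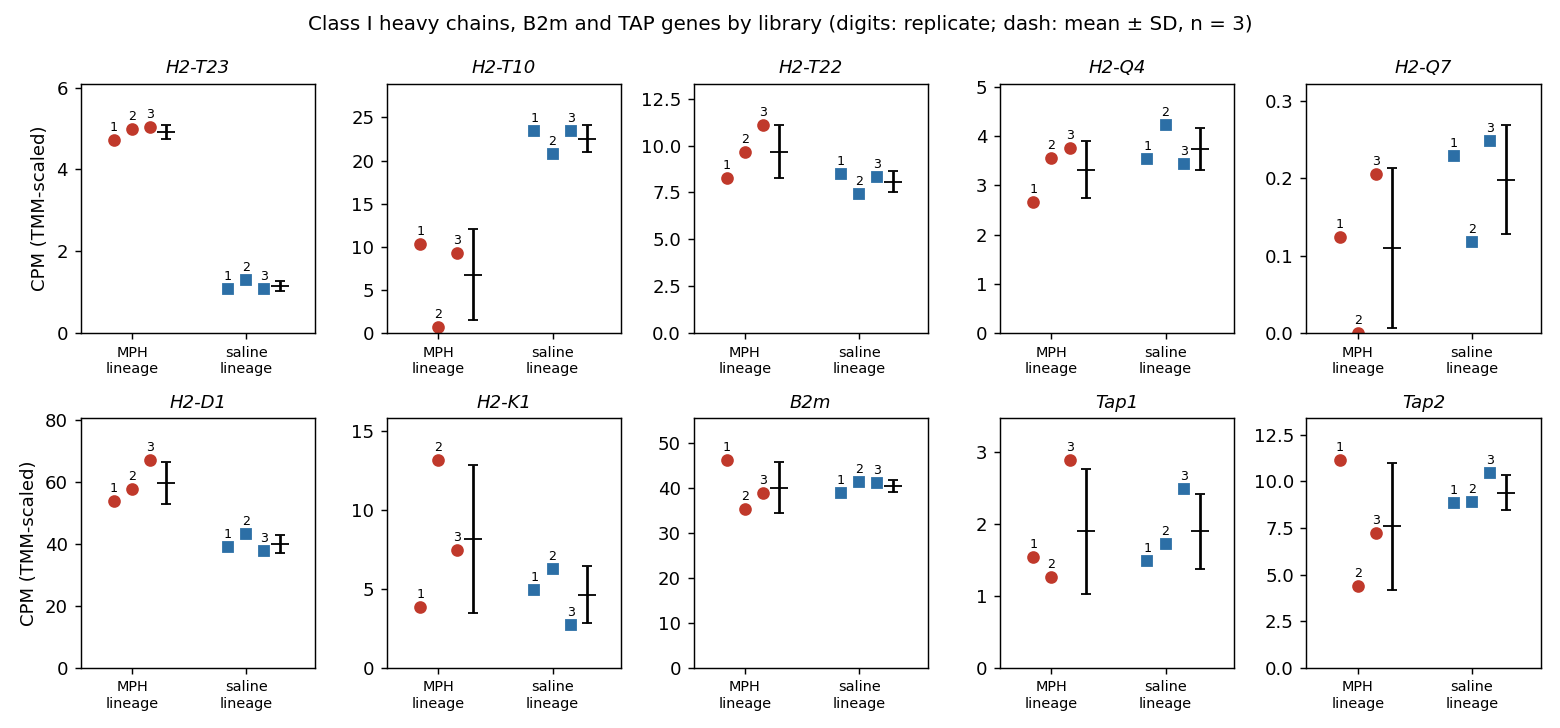
CPM (TMM-scaled, linear axes from 0) of the 10 genes in the 3 methylphenidate libraries (red circles) and 3 saline libraries (blue squares), with replicate numbers and the mean ± SD. The groups do not overlap for H2-T23 and H2-D1, which were higher, and H2-T10, which was lower in the methylphenidate lineage.

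Of the 9 genes in the fit, H2-T23 passed an adjusted p under 0.05 in edgeR's quasi-likelihood test, which is how it came to be chosen, and 5 of all 18327 genes tested did so (0.0273%), 4 higher (0.0218%) and 1 lower (0.00546%). The groups did not overlap in 3 of the 9, 2 higher and 1 lower, where they did not overlap in 13.5% of all genes tested, 6.97% higher and 6.51% lower. Since the members were chosen with these values known, nothing is read from the 2 counts. The median log2 fold change was 0.42 over the 6 heavy chains in the fit and -0.02 over B2m, Tap1 and Tap2, beside 0.00 over all genes.

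The counts of the 7 heavy chains were also summed. The sum was 83.8, 89.8 and 103.8 CPM in methylphenidate replicates 1 to 3, against 80.7, 83.3 and 76.8 CPM in saline replicates 1 to 3, so the groups did not overlap, though their nearest libraries, methylphenidate replicate 1 and saline replicate 2, lay close together. The log2 ratio of the group means was 0.20. Within that sum H2-D1 and H2-K1 together made up 67.7 ± 8.87 CPM in the methylphenidate lineage and 44.6 ± 4.63 CPM in the saline lineage, while the other 5 chains made up 24.8 ± 5.30 CPM in the methylphenidate lineage and 35.7 ± 1.65 CPM in the saline lineage (SD, n = 3 each). H2-D1 alone was 64.2 to 64.6% of the heavy chain counts in the methylphenidate libraries, against 48.25 to 51.95% in the saline libraries. The heavy chain counts were thus divided differently among the genes. Of the other 5 chains, H2-T10 was lower and H2-T23 higher in every methylphenidate library, and H2-T22, H2-Q4 and H2-Q7 overlapped, so their lower sum does not describe nonclassical chains in general.

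Per length of transcript, levels between genes can be set roughly side by side, using the longest protein-coding transcript of each gene in GENCODE M21. The full length was used, although 42.95% of the 50-base stretches of H2-T10 and 44.74% of those of H2-T22 occurred in other genes. For B2m this part was 0.0%. Since the treatment of shared reads was not stated, the order below is approximate. B2m had 46.7 ± 6.54 CPM per kilobase in the methylphenidate lineage and 47.1 ± 1.55 in the saline lineage, the highest level of the 10 genes. H2-D1 followed with 28.3 ± 3.24 CPM per kilobase in the methylphenidate lineage and 19.0 ± 1.41 in the saline lineage, above every other heavy chain in each library. Below H2-D1 the order depended on the lineage, because H2-T10 had 4.57 ± 3.54 CPM per kilobase in the methylphenidate lineage and 15.2 ± 1.06 in the saline lineage. In the methylphenidate lineage H2-T22 (5.50 ± 0.79), H2-K1 (5.05 ± 2.91), H2-T10 and H2-T23 (3.34 ± 0.11) could not be ordered beyond their spread, except that H2-T22 lay above H2-T23. In the saline lineage H2-T10 came before H2-T22 (4.58 ± 0.32), and H2-K1 (2.87 ± 1.10) overlapped both Tap2 (2.73 ± 0.27) and H2-Q4 (2.08 ± 0.24), of which Tap2 was the higher in every library. H2-T23 (0.778 ± 0.086) and Tap1 (0.642 ± 0.177) overlapped there, and H2-Q7 was last in both lineages, with 0.0723 ± 0.0682 CPM per kilobase in the methylphenidate lineage and 0.130 ± 0.046 in the saline lineage (SD, n = 3 each throughout).

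Other class I heavy chain genes of the region were few and faint. Of 35 listed, 17 had a row and 8 entered the fit, and none passed edgeR's threshold. At an unadjusted p under 0.05 there were 2 higher and 2 lower of the 8, where 7.51% of all genes tested had such a p, and DESeq2 and limma-voom called 0. H2-Bl, a blastocyst class I gene, had 11, 25 and 21 counts in the methylphenidate libraries, against 2, 8 and 3 in the saline libraries (2.07 on the log2 scale, SE 0.62, adjusted p by edgeR 0.492). H2-T24, the neighbour of H2-T23, had 64, 100 and 38 counts in the methylphenidate libraries, against 37, 38 and 27 in the saline libraries (0.95 on the log2 scale, SE 0.35, adjusted p by edgeR 0.600). Gm6034 and H2-Q1 were at -1.18 (SE 0.47) and -0.93 (SE 0.40) on the log2 scale, and their adjusted p by edgeR was 0.619 and 0.645. Values on both sides of 0 were thus found in this list too, which had a median log2 fold change of 0.05.

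The machinery that makes and loads the peptides differed little. None of 15 genes for peptide loading and trimming passed edgeR's threshold, none had an unadjusted p under 0.05, and DESeq2 and limma-voom called 0. Their median log2 fold change was 0.00, with 8 above 0 and 7 below. Erap1, the aminopeptidase that trims peptides to the length class I takes, had the smallest p, with 295, 253 and 245 counts in the methylphenidate libraries, against 335, 310 and 313 in the saline libraries (-0.28 on the log2 scale, SE 0.15, adjusted p by edgeR 0.724). Tapbpl, a peptide editor, was at 0.29 on the log2 scale (SE 0.21, adjusted p by edgeR 0.812), and Thop1 and Ganab, a cytosolic peptidase and a glucosidase of glycoprotein folding, were at 0.08 (SE 0.09) and 0.06 (SE 0.06). The immunoproteasome list, whose subunits shape peptides for class I, likewise had no call by edgeR, DESeq2 or limma-voom among 7 genes and 0 with an unadjusted p under 0.05, with a median of 0.08. Psme2, an activator subunit, had 184, 311 and 355 counts in the methylphenidate libraries, against 212, 183 and 230 in the saline libraries (0.42 on the log2 scale, SE 0.23, adjusted p by edgeR 0.737). Psme1, its partner subunit, was at 0.14 on the log2 scale (SE 0.11), the related activator Psme3 at -0.08 (SE 0.07) and Psmb10, a catalytic subunit, at 0.08 (SE 0.10). The constitutive subunits Psmb5, Psmb6 and Psmb7 had values of -0.01 to -0.03, each with an SE of at most 0.09.

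Genes that switch class I on, and genes that answer interferon, showed no call by edgeR, DESeq2 or limma-voom. Among 17 class I regulators no gene passed edgeR's threshold and 0 had an unadjusted p under 0.05, and their median log2 fold change was -0.01. Nfya, a subunit of the factor that binds the CCAAT box, had 24.1 ± 2.73 CPM in the methylphenidate lineage and 20.4 ± 0.63 CPM in the saline lineage (0.24 on the log2 scale, SE 0.11, adjusted p by edgeR 0.665). Irf2 and Stat2, factors of interferon signalling, were at -0.26 (SE 0.12) and 0.18 (SE 0.10) on the log2 scale, and Ciita, the class II transactivator, at -0.52 (SE 0.33). Of 29 interferon-stimulated genes tested, 15 lay above 0 and 14 below, with a median of 0.00 and no call by any of the 3 tools. Unadjusted p under 0.05 was reached by 2 higher and 1 lower, which were Parp14 at 0.61 on the log2 scale (SE 0.23), Gbp7 at 0.41 (SE 0.17) and Irgm1, an interferon-induced GTPase gene, at -0.41 (SE 0.18). The adjusted p of each by edgeR was at least 0.604. The 7 interferon receptor and kinase genes had a median of -0.01, and Ifnar1 had 0.17 (SE 0.09). The class I-like genes outside the H2 region, 7 in the fit, had a median of 0.10 and no call by the 3 tools or unadjusted p under 0.05, and Cd1d1, which presents lipids, had 1.10 (SE 0.62).

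**Figure D4:**
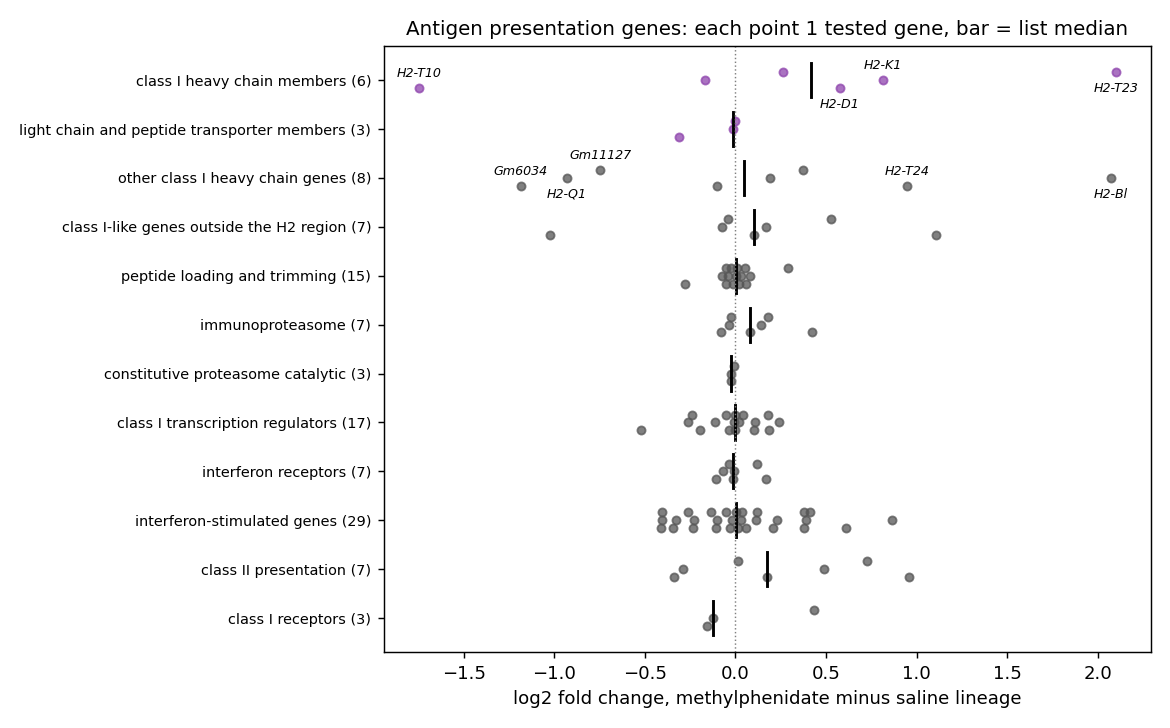
Log2 fold changes (methylphenidate minus saline lineage) of the tested genes of each list of antigen presentation and interferon genes, 1 point a gene, with the list median as a bar and the number of genes in parentheses; purple points are the genes this text is about. The heavy chain genes spread between -1.75 and 2.10, while peptide loading genes lie between -0.28 and 0.29.

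Over all 174 tested genes of these lists and of the H2 region that are not among the 10, 0 passed in edgeR and 0 in limma-voom, 17 had an unadjusted p under 0.05 (9.77%, beside 7.51% of all genes), and DESeq2 called 1. That gene was Aif1, a calcium-binding protein gene of microglia that lies in the H2 region, with 155, 236 and 185 counts in the methylphenidate libraries, against 85, 102 and 108 in the saline libraries (0.93 on the log2 scale, SE 0.20, adjusted p by edgeR 0.226, DESeq2 adjusted p = 0.0153). DESeq2 called 0.824% of all genes.

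Markers of the cells that carry class I were read beside these values. In bulk tissue fewer cells of a type and less RNA per cell cannot be told apart. Of 12 microglia markers, 11 had a log2 fold change above 0, with a median of 0.06, and their summed level was 440 to 540 CPM in the methylphenidate libraries, against 421 to 450 CPM in the saline libraries. Besides Aif1, the complement gene C1qa (0.37, SE 0.13) and the integrin gene Itgam (0.44, SE 0.14) did not overlap between the groups. These were 3 of the 12 markers, all higher, where the groups did not overlap in 13.5% of all genes tested. Of 12 endothelial markers 7 lay above 0, with a median of 0.03 and a summed level of 417 to 479 CPM in the methylphenidate libraries, against 442 to 453 CPM in the saline libraries. Among the endothelial markers, 1 was higher and 1 lower without overlap. Lymphocyte markers summed to 6.12 to 8.74 CPM in the methylphenidate libraries, against 4.26 to 5.47 CPM in the saline libraries, mostly from Cd4 and Ptprc. Cd4 had 70, 30 and 125 counts in the methylphenidate libraries, against 46, 17 and 14 in the saline libraries, and the T cell gene Cd3e had 0, 1 and 0 counts in the methylphenidate libraries and 0 in each saline library. Cortical excitatory markers, which were present in every library, summed to 1740 to 2057 CPM in the methylphenidate libraries, against 1902 to 1998 CPM in the saline libraries. While these sums overlapped, 9 of the 10 markers had a log2 fold change below 0 and 1 above, with a median of -0.22. By edgeR 5 of them had an unadjusted p under 0.05, all lower, beside 7.51% of all genes tested, and DESeq2 called 1. All 12 markers of striatal projection neurons, which lie below the cortex, were above 0, with a median of 1.17 and a summed level of 345 to 827 CPM in the methylphenidate libraries, against 250 to 348 CPM in the saline libraries. Among these striatal markers 9 had an unadjusted p under 0.05 by edgeR, all higher, and DESeq2 called 3. No cortical excitatory or striatal marker passed edgeR's threshold. The part of these cell types in the class I values was not tested.

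The class I genes lie in the H2 region of chromosome 17 together with many unrelated genes, so library-wise differences were also described along the region. From H2-K1 to H2-M2, 96 genes had a mean of at least 1 CPM, 10 of them class I genes. The log2 CPM spanned more than 1 across the 6 libraries, whatever their lineage, in 6 of the 10 class I genes and in 20 of the 86 others, Tap1 and Tap2 among them (23.3%), beside 15.1% of 15825 genes with that level. Methylphenidate replicate 2 was the library farthest from the gene's median in 4 of the 10 class I genes and in 21 of the 86 others (24.4%), beside 14.2% of all such genes. The groups did not overlap in 5 of the 10 and in 12.8% of the others. Among all such genes the groups did not overlap in 13.9%, close to the share of the others, and 3 of the 5 class I genes were members chosen for it. These comparisons were not matched for level, and several class I genes lay near 1 CPM, such as H2-M3 (1.44) and H2-Q1 (1.53). The 6 class I genes that spanned more than 1 included H2-T23, H2-T10 and H2-K1, members chosen with their values known.

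A few neighbours, chosen after their values were seen, are given as examples of library-wise differences and support nothing further. Cfb, which encodes complement factor B, had 35, 0 and 61 counts in methylphenidate replicates 1 to 3, against 83, 76 and 58 in saline replicates 1 to 3. A count of 0 in methylphenidate replicate 2 allows up to 0.106 CPM, against a saline mean of 2.85 CPM. C4a, a complement component gene, had 125, 50 and 112 counts in the methylphenidate libraries, against 129, 49 and 191 in the saline libraries. Low C4a was thus shared by methylphenidate replicate 2 and saline replicate 2, whose H2-T10 counts were 21 and 530. Tap2 and H2-Q1 were also lowest, and H2-K1 and H2-T24 highest, in methylphenidate replicate 2.

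**Figure D5:**
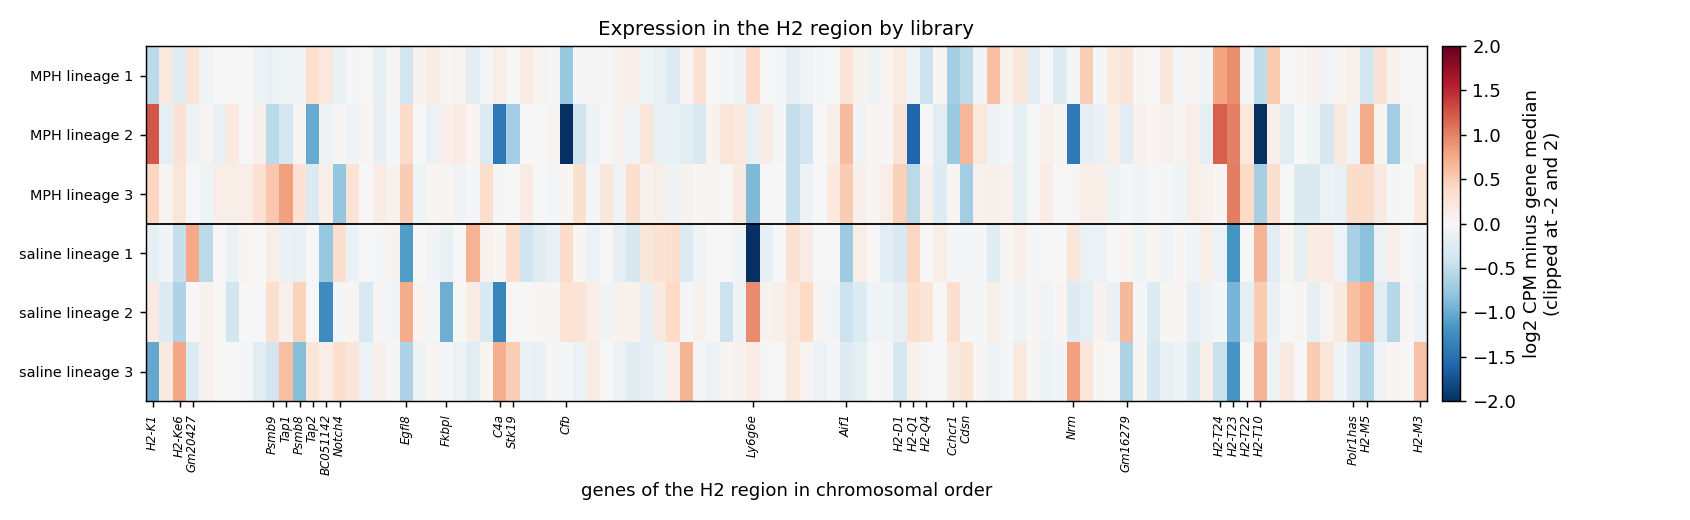
Log2 CPM minus the gene's median over 6 libraries (colour, clipped at -2 and 2) for the 96 genes of the H2 region in chromosomal order, in methylphenidate libraries (upper 3 rows) and saline libraries (lower 3 rows). Named genes are class I or span more than 1; H2-T10 and Cfb are lowest in methylphenidate replicate 2, and H2-T23 is higher in all 3 methylphenidate libraries.

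Genes whose log2 CPM over the 6 libraries was most like that of H2-T23, among 15824 others, were Slc4a7, Gm47467, Rfx2, Kcnh6 and Slc2a4, with Pearson correlations of 0.987 to 0.992. The genes most like H2-T10 were 4921513H07Rik, Rnf167, Ccdc157, Pex2 and Scg3, with correlations of 0.984 to 0.992. All points share the same 6 libraries, and the values are given with no test. Of the 10, Rfx2 was the one on chromosome 17 in GENCODE M21, and no class I gene was among them.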

How the data were processed

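Per the labels' protocols, polyadenylated RNA of the cortex went into directional libraries. Per the submitters' processing notes, bcl2fastq 2.19, fastp 0.23.4, HISAT2 2.2.1, StringTie 2.2.1 and the build GRCm39 were used; what each did, the strand setting, the annotation and the way reads were counted were not stated. The authors deposited whole-number counts per gene, not normalized, with totals of 23896752 to 28120640 per library. Groups and replicate numbers came from the sample titles. In R 4.3.3, edgeR 4.0.16 fitted the 2 groups by quasi-likelihood (two-sided) after its default filter and TMM scaling, with Benjamini-Hochberg adjustment over all genes tested and a threshold of 0.05; each standard error is the absolute log2 fold change over the square root of F. Library-wise log2 CPM used a prior count of 0.5. The fit was tested on simulated data, with changes planted only in genes above a minimum mean count, so genes with few counts were not covered. There it recovered 31.3% of 1.5-fold, 74.6% of 2-fold and 87.9% of 4-fold changes. Of its 145 calls there, 16 were false, a larger share than the threshold of 0.05. Alternatives were other scalings and filters, DESeq2 1.42.0, limma-voom (limma 3.58.1), a replicate block and leaving out each library. GENCODE M21 and RefSeq, both on GRCm38, gave sequences, transcript lengths and gene order, with 15626 of 15825 genes matched by identifier; their build differs from that of the counts. The members and gene lists were chosen with earlier results of these data known. Named genes were the members, up to 4 genes of smallest p in the lists described, and the 5 genes most like H2-T23 and H2-T10. Others are marked as chosen after their values were seen. Markers of further cell types were summed but not described.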

Additional observations from a re-analysis of the deposited data

How the results depend on the processing

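The count of all genes past the threshold, 5 in the edgeR fit, was 10 with total-count scaling, 3 with no filter on low counts, 151 with DESeq2 and 2 to 26 when 1 library was left out: 26, 12 and 2 without methylphenidate replicates 1, 2 and 3, and 6, 3 and 8 without saline replicates 1, 2 and 3. RLE and upper-quartile scaling, the stricter filter and limma-voom each gave 5. Whether the replicate numbers pair the samples could not be settled. Deviations from the group means correlated by 0.0353, 0.148 and -0.00463 between same-numbered libraries. Between differently numbered libraries they correlated by -0.183 to 0.146. With 3 libraries per group these values cannot show that pairing is absent. With the replicate block 2 genes passed, and H2-T23 had an edgeR adjusted p of 0.159. H2-T23 was past the threshold in 7 of 14 alternatives (adjusted p 6.74e-08 to 0.159), and was not with no filter, with the block, without any one saline library, or without methylphenidate replicate 2 or 3. H2-D1 passed with DESeq2 alone (adjusted p = 0.000193; over all alternatives up to 0.488), and H2-T10 passed without methylphenidate replicate 2 alone (edgeR adjusted p = 0.0208; otherwise up to 0.890). The cause of these differences was not tested. All 14 alternatives reuse the libraries by which the members were chosen, so passing the threshold in them is no separate support. Directions were kept in all 14 alternatives for 7 of the 9 members in the fit; H2-Q4 was at -0.03 without methylphenidate replicate 1 and -0.07 without saline replicate 2, and H2-T22 at 0.15 without methylphenidate replicate 3. B2m ranged from -0.13 to 0.07 and Tap1 from -0.44 to 0.24. Of the listed non-member genes none passed in any alternative except DESeq2, which called 1. The log2 ratio of the summed heavy chains was 0.20 to 0.21 under the other scalings and 0.11 to 0.27 without 1 library, the lowest without methylphenidate replicate 3. The median log2 fold change of all genes was 0.00 to 0.01 under the other scalings. Summing the rows of a symbol was not run, since each member had 1 row. Genes with few counts, H2-Q7 and H2-Bl among them, are limited by depth.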

Other observations

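The products of class II genes present peptides taken up from outside the cell. Of 10 listed, 7 entered the fit and none passed, with 0 at an unadjusted p under 0.05 and 0 called by DESeq2 or limma-voom. Cd74, the class II chaperone, had 104, 62 and 63 counts in the methylphenidate libraries, against 49, 59 and 55 in the saline libraries (0.49 on the log2 scale, SE 0.31, adjusted p by edgeR 0.773). H2-Ea, a class II chain gene, was picked with its counts already known. It had 0, 25 and 0 counts in methylphenidate replicates 1 to 3 and 0 in each saline library. RefSeq lists H2-Ea as a transcribed pseudogene of the reference strain. The library with H2-Ea counts was the one with 0 counts of Cfb and 21 of H2-T10.

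Few receptors that read class I could be tested. Of 12 listed, 6 had a row and 3 entered the fit, and none passed in edgeR, DESeq2 or limma-voom or had an unadjusted p under 0.05. Trem2, a lipid receptor of microglia held in that list, had 232, 279 and 401 counts in the methylphenidate libraries, against 280, 169 and 224 in the saline libraries (0.44 on the log2 scale, SE 0.25, adjusted p by edgeR 0.749).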
